A study of Homo sapiens with 6 samples.

Results

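The nuclear-encoded respiratory chain genes were followed in the RNA of MDA-MB-231 cells, an established human triple-negative breast cancer line, given shikonin or left untreated. This gene group was chosen with earlier results of these data known, and its members were then set by a rule on the gene symbol. They are the genes of the authors' deposited table whose symbol begins with NDUF, UQCR, ATP5 or COX4 to COX8. The rule also takes SDHA to SDHD and CYC1. The rule found 81 genes among the 7150 in the authors' deposited table, and 100 protein-coding genes of GENCODE 29 carry such symbols. The shikonin group consisted of 3 libraries from cells exposed for 24 h to 0.5 µM shikonin, a naphthoquinone of plant origin, the dose unit, a small m in the labels, being read as micromolar. The control group consisted of 3 libraries from cells labelled as having no treatment; no vehicle is named. All 6 libraries carry the genotype label WT. The labels do not tell whether libraries were grown apart, so each p-value here measures only the spread between these samples, and that spread may be technical.

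The authors' deposited table lists genes past an adjusted p of 0.05 and a fold of 1.5 and has 0 columns of per-sample values. Depth per library is therefore unknown here, and levels are given as implied group means, solved from the listed mean normalized count and fold with equal weight of the libraries. The header does not name the numerator of the fold, so a positive log2 fold change, which carries the authors' mark "up", is read here as higher in shikonin. Among the markers of the line, VIM had implied means of 81887 normalized counts in shikonin and 46972 in control by the authors' deposited table, and CAV1 and ANXA1 were also listed. CD44, AXL and MSN had no row. Of the markers of other cells, KRT8 (implied means 22514 in shikonin and 9454 in control), KRT18 (13603 and 4278), FOXA1 (67.9 and 2.91) and CD14 (1807 and 404, same order) were higher, ERBB2 was lower, and ESR1, PGR, GATA3, CDH1, PTPRC and CD3E had no row; their part in the results was not tested. In bulk RNA, a different share of cells and a different amount of RNA per cell cannot be told apart.

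The respiratory chain sits in the inner mitochondrial membrane. Complexes I and II pass electrons from NADH and succinate to coenzyme Q, complex III hands them to cytochrome c, and complex IV gives them to oxygen. Proton pumping by complexes I, III and IV drives ATP synthase, called complex V. A few catalytic subunits are made from mitochondrial DNA, and every other subunit is made from nuclear genes in the cytosol and imported. Breast cancer cells use this chain beside glycolysis for ATP and for the NAD+ that growth requires.

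Shikonin-treated cells had higher RNA of nearly every listed respiratory chain gene. Of the 81 members in the authors' deposited table, 80 were higher and 1, the readthrough gene ATP5MF-PTCD1, was lower. The 80 make up 80% of the 100 annotated members. Over all genes tested, about 14253 as recovered from the adjusted p-values, 50.2% were listed by the same rule, 25.5% as higher and 24.7% as lower, in the authors' deposited table. The members' median log2 fold change was 1.52 by the authors' deposited table, a 2.86-fold difference, beside a median of 0.60 over all listed genes and 1.22 over the 3630 listed as higher. A total of 65 members were at least 2-fold higher, against 16.4% of all genes tested. For 51 members the 95% interval of the fold, computed with the listed standard error, lay wholly above 2-fold. It did so for 1201 of all 7150 listed genes. The adjusted p of the authors' DESeq2 test was below 1e-10 for 56 members in the authors' deposited table. The same count over all genes was not taken, so this one has no share to be set against. With the implied totals of all listed genes set equal, 66 members were still higher past 1.5-fold and the median was 1.12, from the authors' deposited table. On that scale the median over all listed genes was 0.21. In either direction, 67 of the 81 members and 5911 of the 7150 listed genes passed 1.5-fold. The count of higher genes alone was not taken over all genes on that scale. Without the readthrough gene and the 2 members with a mean under 100 normalized counts, the remaining 78 lay between 1.53-fold and 4.39-fold in the authors' deposited table, the lower edge being set by the listing threshold of 1.5-fold.

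**Figure D1:**
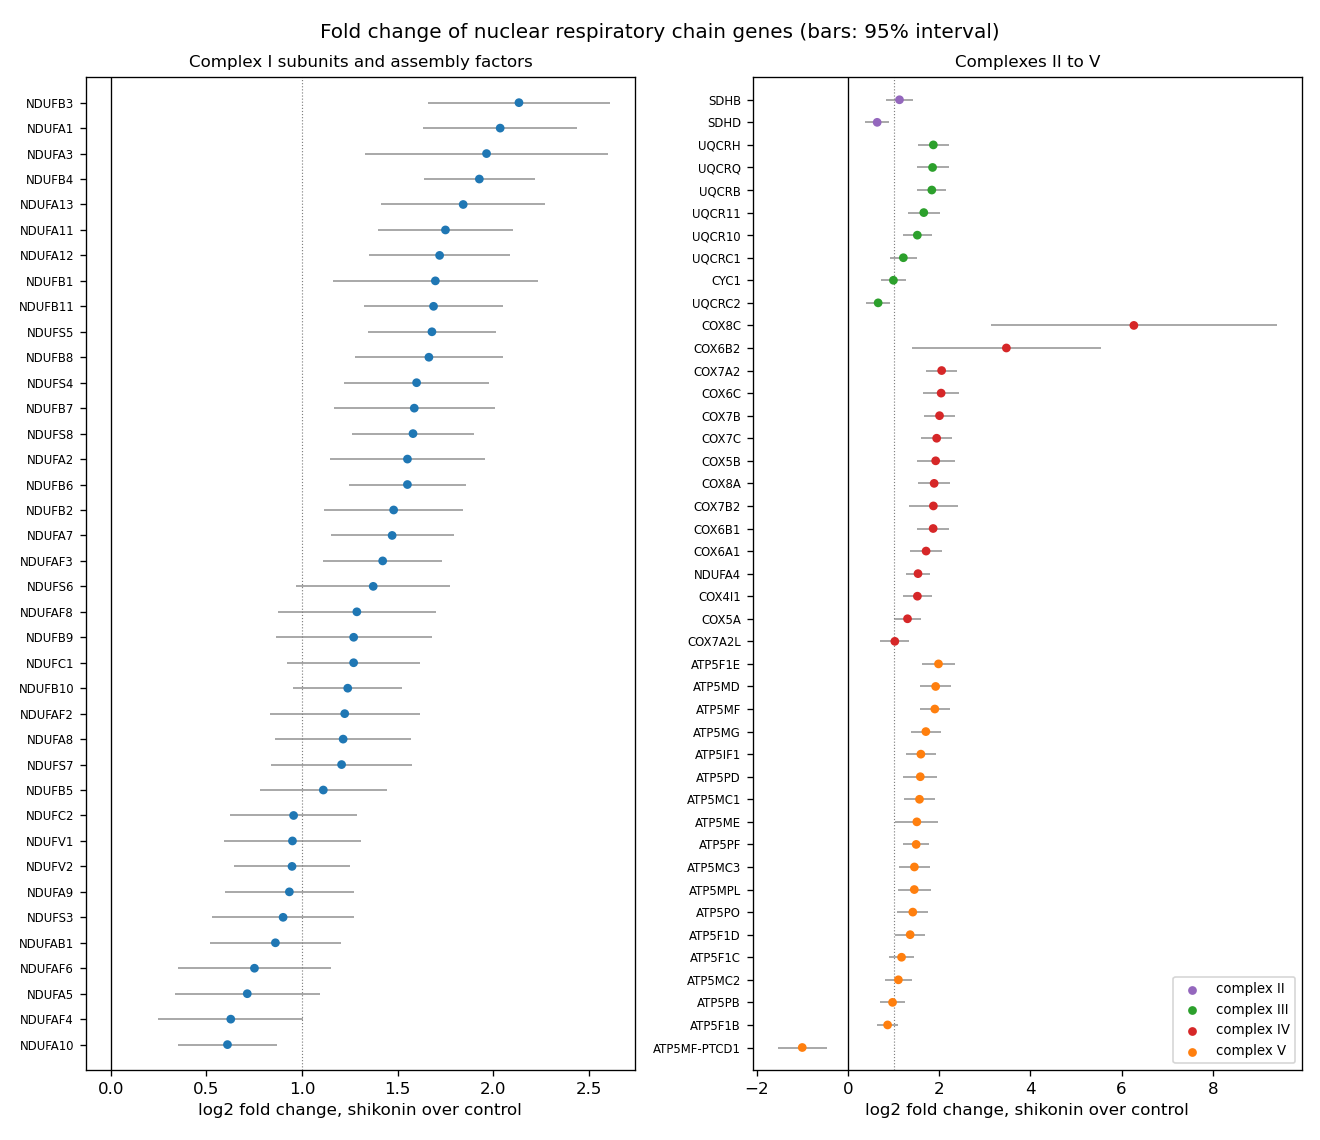
Log2 fold change, shikonin over control (horizontal axis), of each of the 81 members, complex I at left and complexes II to V at right, with points coloured by complex and bars giving the 95% interval from the authors' standard error. The dotted line marks 2-fold. Points lie right of 0 for every gene except ATP5MF-PTCD1, and the bars of COX8C and COX6B2 are the widest.

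Complex I, the NADH dehydrogenase, had 38 of its 46 annotated genes listed, all 38 higher, with a median log2 fold change of 1.40 by the authors' deposited table. The 28 listed accessory subunits, which surround and hold the catalytic arm, had a median of 1.55, with 2 of 30 (NDUFA6 and NDUFV3) having no row. NDUFB3, a small subunit of the membrane arm on chromosome 2 (201071433 to 201085750, GRCh38, 4 exons in GENCODE 29), had the largest change of the complex, with implied means of 587 normalized counts in shikonin and 134 in control, 4.39-fold (interval 3.16 to 6.11) higher by the authors' deposited table. NDUFA1, a membrane subunit encoded on chromosome X, had implied means of 1161 in shikonin and 283 in control by the authors' deposited table and was 4.1-fold (interval 3.1 to 5.43) higher. NDUFA3 was 3.91-fold (interval 2.51 to 6.07) higher by the authors' deposited table on the lower implied means of 244 in shikonin and 62.4 in control. NDUFB4, on chromosome 3 (120596309 to 120602500, 3 exons), had the smallest adjusted p of the complex, 6.49e-37 by the authors' DESeq2 test, and was 3.8-fold (interval 3.11 to 4.65) higher by the authors' deposited table. The intervals of these 4 genes overlapped, so their order is within error. At the other end, NDUFA10, a matrix-side subunit on chromosome 2 (239892450 to 240025402), had implied means of 1686 in shikonin and 1104 in control and was 1.53-fold (interval 1.28 to 1.82) higher by the authors' deposited table, an interval wholly below those of these 4 genes. Between these ends, NDUFA13, NDUFA11 and NDUFA12 were 3.59, 3.37 and 3.29-fold higher, and 15 members of all complexes together stayed below 2-fold in the authors' deposited table. NDUFAB1, the mitochondrial acyl carrier protein that also serves fatty acid and lipoate synthesis, was 1.82-fold (interval 1.43 to 2.3) higher by the authors' deposited table.

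The 7 nuclear core subunits of complex I carry the flavin and the iron-sulfur clusters that lead electrons to coenzyme Q. Of these, 5 were listed, all higher, with a median log2 fold change of 0.95 by the authors' deposited table. NDUFS8 and NDUFS7, iron-sulfur proteins near the coenzyme Q site, were 2.99-fold (interval 2.4 to 3.73) and 2.31-fold (interval 1.79 to 2.98) higher by the authors' deposited table. NDUFV1, which binds NADH and flavin, had implied means of 3138 in shikonin and 1624 in control and was 1.93-fold (interval 1.51 to 2.48) higher by the authors' deposited table. Its partner NDUFV2 was 1.93-fold (interval 1.56 to 2.38) higher and NDUFS3 1.87-fold (interval 1.45 to 2.41) higher by the authors' deposited table. The NDUFAF assembly factors help build complex I without staying in it. Of 8, 5 were listed and all were higher: NDUFAF3 by 2.68-fold (interval 2.16 to 3.33), NDUFAF8 by 2.44-fold (interval 1.83 to 3.25), NDUFAF2 by 2.34-fold (interval 1.78 to 3.06), NDUFAF6 by 1.68-fold (interval 1.28 to 2.22) and NDUFAF4 by 1.55-fold (interval 1.19 to 2.01) by the authors' deposited table. NDUFAF1, NDUFAF5, NDUFAF7 and the readthrough NDUFC2-KCTD14 had no row. Having no row says only that a gene was not past the thresholds or not tested.

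Complex II, succinate dehydrogenase, is the only complex built wholly from nuclear genes. SDHB, its iron-sulfur subunit on chromosome 1 (17018722 to 17054170, 8 exons), had implied means of 2649 normalized counts in shikonin and 1214 in control, 2.18-fold (interval 1.79 to 2.66) higher by the authors' deposited table (adjusted p = 9.9e-14 by the authors' DESeq2 test). SDHD, a membrane anchor, had 2984 in shikonin and 1919.9 in control and was 1.55-fold (interval 1.29 to 1.87) higher by the authors' deposited table. The flavoprotein gene SDHA and SDHC, for the other anchor, had no row. With 2 of 4 genes listed, this complex had the smallest listed share. Its 2 values lay below the median of each other complex in the authors' deposited table. Its listed genes also had the longest median coding length of any complex, 219.5 codons, and the part of length was not tested.

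Complex III had 8 of its 10 genes listed, all higher, with a median log2 fold change of 1.59 by the authors' deposited table. The small subunits led: UQCRH, the hinge protein that helps cytochrome c1 meet cytochrome c, had implied means of 4075 in shikonin and 1116 in control and was 3.65-fold (interval 2.87 to 4.64) higher by the authors' deposited table. UQCRQ was 3.61-fold (interval 2.83 to 4.6) higher and UQCRB, which had the smallest adjusted p of the complex (1.8e-28, the authors' DESeq2 test), 3.57-fold (interval 2.87 to 4.44) higher by the authors' deposited table. UQCR11 and UQCR10 were 3.16-fold (interval 2.47 to 4.04) and 2.86-fold (interval 2.3 to 3.57) higher by the authors' deposited table. CYC1, the cytochrome c1 gene, had 8922 in shikonin and 4483 in control and was 1.99-fold (interval 1.64 to 2.42) higher by the authors' deposited table. The large UQCRC1 and UQCRC2 proteins, called core proteins by name but counted here as accessory since they carry no redox centre, face the matrix. UQCRC1 was 2.32-fold (interval 1.89 to 2.84) and UQCRC2 1.58-fold (interval 1.32 to 1.88) higher by the authors' deposited table, and these intervals do not overlap, though the difference itself was not tested. The Rieske iron-sulfur gene UQCRFS1 and the UQCRH copy UQCRHL had no row.

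Complex IV, cytochrome c oxidase, showed the largest median of the 5 complexes, 1.89 on the log2 scale over 15 listed genes. Over the 13 whose mean reached 100 normalized counts it was 1.87 in the authors' deposited table. The listed genes of complex IV also had the shortest median coding length, 86 codons. In complexes III, V, I and II it was 101, 138.5, 149 and 219.5 codons, the reverse of the order of the medians. The part of length in this order was not tested. The catalytic subunits of complex IV come from mitochondrial DNA, and the nuclear subunits bind around them. All 15 listed genes were at least 2-fold higher by the authors' deposited table. COX7A2, on chromosome 6 (75237675 to 75250323, 4 exons), had implied means of 2577 in shikonin and 622 in control and was 4.14-fold (interval 3.28 to 5.24) higher by the authors' deposited table, with an adjusted p of 1.33e-30 by the authors' DESeq2 test. COX6C had 2438 in shikonin and 593 in control and was 4.11-fold (interval 3.14 to 5.38) higher, and COX7B had 3135 and 781 in the same order and was 4.01-fold (interval 3.17 to 5.08) higher by the authors' deposited table. COX7C, COX5B, COX8A and COX6B1 lay between 3.64 and 3.84-fold in the authors' deposited table, close together for subunits encoded on 4 chromosomes. COX4I1, the regulatory subunit IV, had implied means of 7406 in shikonin and 2584 in control and was 2.87-fold (interval 2.3 to 3.57) higher by the authors' deposited table. COX5A had the smallest change of the enzyme's own subunits, 2.47-fold (interval 2.0 to 3.04) by the authors' deposited table. NDUFA4, named for complex I and now counted as a subunit of complex IV, was 2.89-fold (interval 2.4 to 3.48) higher by the authors' deposited table. COX7A2L, a factor that joins complexes III and IV into supercomplexes, was 2.03-fold (interval 1.63 to 2.54) higher by the authors' deposited table.

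Several complex IV subunits exist as tissue isoforms from separate genes. The muscle or lung forms COX4I2, COX6A2 and COX7A1 had no row, nor did NDUFA4L2, while their ubiquitous partners COX4I1, COX6A1 and COX7A2 were higher; COX6A1 was 3.27-fold (interval 2.57 to 4.17) higher by the authors' deposited table. All 3 forms known mainly from testis were listed as higher, each below its ubiquitous partner in level. COX7B2 had implied means of 247 normalized counts in shikonin and 67.6 in control and was 3.66-fold (interval 2.52 to 5.3) higher by the authors' deposited table, close to the 4.01-fold of COX7B. COX6B2 had implied means of 19.5 in shikonin and 1.76 in control, with a wide interval of 2.64 to 46.7 on the fold in the authors' deposited table. COX8C had an implied mean of 12.3 in shikonin by the authors' deposited table, and its implied control mean, 0.159, was shared within 5% by 73 listed genes, the level that the fit gives to genes near 0, so no fold is given for it. Per 1000 coding bases, the implied level of COX7B2 was 1017 in shikonin and 278 in control, against 13063 and 3255 for COX7B in the same groups, from the authors' deposited table. On that scale COX6B2 stood at 73.8 in shikonin and 6.66 in control, against 15708 and 4313 for COX6B1, from the authors' deposited table.

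**Figure D2:**
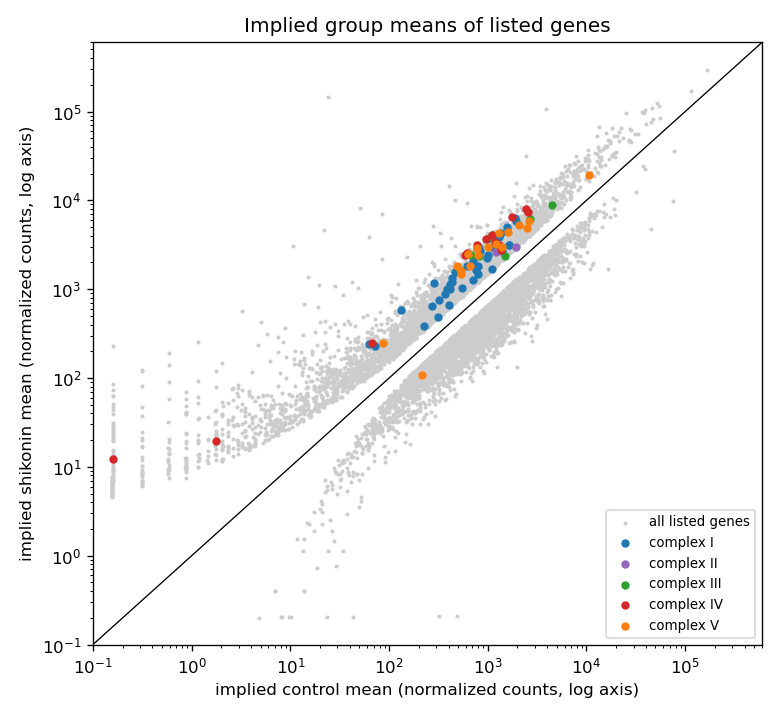
Implied mean normalized counts in shikonin (vertical, log axis) against control (horizontal, log axis) for all 7150 listed genes (grey) and the 81 members, coloured by complex; the line marks equal means and the empty band around it holds the genes not past the authors' thresholds. Apart from the readthrough gene, members run as a strip above the line, from ATP5F1B at 19116 in shikonin and 10494 in control down to COX6B2 and COX8C, which sit apart at the low end.

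Complex V had 18 of its 21 genes listed, 17 higher, with a median log2 fold change of 1.47 by the authors' deposited table. ATP5F1B, the catalytic beta subunit on chromosome 12 (56638175 to 56646068, 10 exons), had the highest implied means of all members, 19116 in shikonin and 10494 in control, and a change of 1.82-fold (interval 1.55 to 2.14) by the authors' deposited table. Its partner, the alpha subunit gene ATP5F1A, had no row, nor did ATP5MGL and ATP5S. In the central stalk the smallest protein had the largest fold: ATP5F1E, the epsilon subunit of 51 codons, was 3.95-fold (interval 3.08 to 5.07) higher, ATP5F1D, the delta subunit of 168 codons, 2.57-fold (interval 2.04 to 3.23), and ATP5F1C, the gamma subunit of 297 codons, 2.25-fold (interval 1.85 to 2.74) by the authors' deposited table. Small membrane subunits rose too, ATP5MD by 3.78-fold (interval 2.98 to 4.81), ATP5MF by 3.74-fold (interval 2.99 to 4.67) and ATP5MG by 3.26-fold (interval 2.58 to 4.11) in the authors' deposited table. The smallest adjusted p of the complex, 4.51e-29 by the authors' DESeq2 test, was that of ATP5MF. Of the peripheral stalk, ATP5PD, ATP5PF and ATP5PO were 3.0, 2.81 and 2.67-fold higher and ATP5PB 1.96-fold in the authors' deposited table. ATP5IF1, the inhibitor that stops the enzyme from running backwards, had implied means of 1614 in shikonin and 534 in control and was 3.02-fold (interval 2.4 to 3.81) higher by the authors' deposited table.

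The readthrough gene ATP5MF-PTCD1 joins ATP5MF to its neighbour PTCD1, which encodes a mitochondrial RNA-binding protein. It had implied means of 108 in shikonin and 218 in control and was 2.01-fold (interval 1.38 to 2.92) lower by the authors' deposited table. PTCD1 itself was 1.52-fold (interval 1.05 to 2.18) lower, with an adjusted p of 0.0412 by the authors' DESeq2 test in the authors' deposited table. The readthrough gene spans chromosome 7 from 99419749 to 99466197 and overlaps both genes on the same strand, so reads of the 3 genes cannot be fully told apart.

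The rotor of complex V is a ring of c subunits, for which ATP5MC1, ATP5MC2 and ATP5MC3 each encode the same mature protein behind different import signals. ATP5MC1 had implied means of 2979.7 in shikonin and 1007 in control, 2.96-fold (interval 2.33 to 3.76) higher by the authors' deposited table. ATP5MC3 had 4429 in shikonin and 1618 in control and was 2.74-fold (interval 2.16 to 3.48) higher by the authors' deposited table. ATP5MC2 had 3021 in shikonin and 1407 in control and was 2.15-fold (interval 1.74 to 2.64) higher by the authors' deposited table. The 3 intervals overlap. Because reads of near-identical genes can be confused, the ends of their coding sequences are shown, from GENCODE 29 (GRCh38), 5′ to 3′ without the stop codon, for ATP5MC1 at chr17:48895677-48895766 (plus strand), ATP5MC2 at chr12:53665317-53665406 (minus strand) and ATP5MC3 at chr2:175178291-175178380 (minus strand). Capitals mark the 25 of these 90 positions at which the 3 genes are not all alike.
ATP5MC1: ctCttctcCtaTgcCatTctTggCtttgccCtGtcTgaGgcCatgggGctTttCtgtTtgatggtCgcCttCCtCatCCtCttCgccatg
ATP5MC2: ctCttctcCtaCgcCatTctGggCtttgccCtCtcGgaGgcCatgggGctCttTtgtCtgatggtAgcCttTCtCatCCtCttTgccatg
ATP5MC3: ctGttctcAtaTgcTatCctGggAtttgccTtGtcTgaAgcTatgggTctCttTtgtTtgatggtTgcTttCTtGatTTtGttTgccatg
Over the last 75 codons all 75 residues are the same in each pair, while 200 of 225 bases are the same between ATP5MC1 and ATP5MC2 (88.9%) and 183 of 225 (81.3%) between ATP5MC3 and either of the others. Among the 3 genes, 52 of the 225 positions are not all alike.

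Catalytic core and accessory subunits were set side by side, without a test of the difference. The core was taken as the nuclear core of complex I, the complex II subunits, CYC1, UQCRFS1 and the alpha and beta subunits of ATP synthase. Of these 15 genes, 9 were listed, all higher, with a median log2 fold change of 0.95 by the authors' deposited table, and 3 of the 9 (NDUFS8, NDUFS7 and SDHB) were at least 2-fold higher. Of the 59 accessory subunits of the 5 complexes, 57 were listed, all higher, with a median of 1.59 by the authors' deposited table, and 50 were at least 2-fold higher. With equal implied totals 4 of the 9 core genes (median 0.56) and 50 of the 57 accessory genes (median 1.19) still passed 1.5-fold, from the authors' deposited table. The listed core genes were also longer, with a median coding length of 264 codons against 116 for the listed accessory genes, and the part of length in this difference was not tested.

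Fold change went with coding length among the members as it did in the rest of the authors' deposited table. Spearman's rho between coding length and log2 fold change was -0.69 across the 81 members and -0.60 across 6809 other listed protein-coding genes, given as a description since genes share the same 6 libraries. Of the 29 annotated members of up to 100 codons, 24 were listed, with a median log2 fold change of 1.88, beside 1.38 for the 195 other listed genes of that length, of which 96.4% were higher by the authors' deposited table. From 101 to 150 codons, 25 of 28 members were listed with a median of 1.59, beside 1.39 for 440 other genes, 94.8% of them higher by the authors' deposited table. From 151 to 250 codons the members' median was 1.27 over 19 listed genes and that of 983 other genes 1.11, with 85.1% higher by the authors' deposited table. From 251 to 400 codons it was 0.95 over 8 members and 0.85 over 1321 other genes, with 71.8% higher by the authors' deposited table. Above 400 codons, 5 of 10 annotated members were listed, 4 of them higher, while 25.8% of 3870 other listed genes were higher by the authors' deposited table. The members up to 400 codons were all higher, while the other genes include lower ones. Among the other genes listed as higher, the medians were 1.41 up to 100 codons, 1.42 from 101 to 150, 1.22 from 151 to 250 and 1.07 from 251 to 400 codons by the authors' deposited table. Against these the members' medians were higher in the 3 shorter classes and lower from 251 to 400 codons (0.95 against 1.07). Above 400 codons the other higher genes had a median of 1.16. The 5 listed members there, with the lower readthrough gene among them, had a median of 0.87. These differences were not tested.

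**Figure D3:**
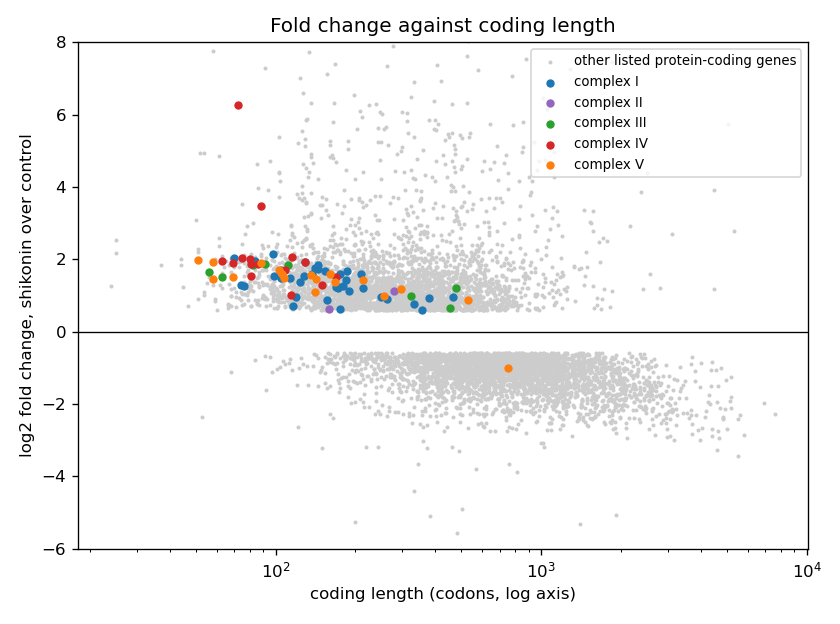
Log2 fold change, shikonin over control (vertical), against coding length of the principal transcript in codons (horizontal, log axis) for the members, coloured by complex, and other listed protein-coding genes (grey); the vertical axis is cut, which leaves out a few grey genes but no member. The members slope downward from small subunits at the upper left to NDUFV1, UQCRC2 and ATP5F1B, and the readthrough gene lies below 0 at 749 codons.

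Pseudogenes can take or lend reads. GENCODE 29 holds 154 pseudogenes whose symbols match the same rule, of which 0 were listed, and 42 of the 81 listed members have at least 1 of these. Because the rule takes SDHA to SDHD and CYC1 as whole symbols, pseudogenes named after these genes were not counted. SDHB, SDHD and CYC1 therefore fall among the members without a counted pseudogene, whether or not they have any. COX6C has 17, NDUFA5 and NDUFB4 have 12 each, so their single values are less certain. The 42 had a median log2 fold change of 1.57, all 42 being higher, and the 39 without a counted pseudogene had a median of 1.45, 38 being higher, by the authors' deposited table. Among the 38, folds ran from 1.53 for NDUFA10 to 4.39 for NDUFB3 where the mean reached 100 normalized counts in the authors' deposited table. The part of pseudogene reads was not tested. A gene on the opposite strand overlaps 39 of the members, and the sources used here do not say whether the counting used strand.

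Genes whose products build or serve the chain were also listed. Their counts stand beside the 25.5% of all genes tested that were listed as higher and the 24.7% listed as lower. Of 55 genes taken here as assembly factors outside the naming rule, 32 were listed, 28 higher and 4 lower, with a median log2 fold change of 1.00 by the authors' deposited table. The set includes FAM162A, which was higher, and LRPPRC, which was lower, and the part of these genes in assembly was not checked. SDHAF4, which helps mature SDHA, had implied means of 218 in shikonin and 49.5 in control and was 4.4-fold (interval 2.84 to 6.82) higher by the authors' deposited table. UQCC2 of complex III was 3.36-fold (interval 2.43 to 4.64) higher and the copper chaperone COX17 3.06-fold (interval 2.23 to 4.19) higher by the authors' deposited table. Of the 4 lower genes, NUBPL, an iron-sulfur carrier for complex I, was 2.04-fold (interval 1.32 to 3.14) lower and LYRM7, a chaperone of the Rieske protein, 1.96-fold (interval 1.39 to 2.76) lower by the authors' deposited table. COA7 was 1.7-fold (interval 1.32 to 2.18) lower by the authors' deposited table. LRPPRC, a protein of 1394 codons that stabilises mitochondrial messages, had implied means of 1749 in shikonin and 3842 in control and was 2.2-fold (interval 1.8 to 2.68) lower by the authors' deposited table. CYCS, which encodes cytochrome c, was 1.75-fold (interval 1.43 to 2.14) higher, and of 13 coenzyme Q synthesis genes beside it 6 were higher and 1, PDSS2, was lower by the authors' deposited table.

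Of the 13 mitochondrially encoded subunits, 5 were listed, 3 higher and 2 lower, beside 50.2% of all genes tested listed in either direction. ND1, ND2 and ND3, complex I subunits, were 1.75-fold (interval 1.42 to 2.15), 1.82-fold (interval 1.49 to 2.22) and 2.4-fold (interval 1.95 to 2.94) higher by the authors' deposited table. ND6, the complex I subunit read from the other strand of mitochondrial DNA, had implied means of 1528 in shikonin and 4498 in control and was 2.94-fold (interval 2.43 to 3.57) lower by the authors' deposited table, with an adjusted p of 2.81e-26 by the authors' DESeq2 test. ATP8, of complex V, had the lowest level of the 5, with implied means of 47.1 in shikonin and 102 in control. It was 2.17-fold (interval 1.34 to 3.53) lower by the authors' deposited table. ATP6, also of complex V, had no row, and whether reads of ATP8 and ATP6 can be told apart was not tested. The catalytic complex IV messages and that of cytochrome b had no row. The way the RNA was selected, which bears on mitochondrial messages, is not stated in the labels. Whether the counting used strand, which bears on ND6, is not said in the sources used here either.

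Among 14 regulators of these genes, 3 were higher and 3 lower. Over all genes tested 25.5% were listed as higher and 24.7% as lower, so these counts are not read as a result about the regulators. PPARGC1B, a coactivator that promotes mitochondrial biogenesis, had implied means of 37.9 in shikonin and 168 in control and was 4.44-fold (interval 2.69 to 7.34) lower by the authors' deposited table. PPRC1, a related coactivator, was 1.84-fold (interval 1.49 to 2.26) lower and GABPB2 1.94-fold (interval 1.3 to 2.91) lower, while TFB2M, a mitochondrial transcription factor, was 2.2-fold (interval 1.76 to 2.75) higher by the authors' deposited table. TFB1M and GABPB1 were 1.79 and 1.51-fold higher by the authors' deposited table, and NRF1, GABPA, YY1, TFAM and PPARGC1A had no row. Of 17 tricarboxylic acid cycle and pyruvate dehydrogenase genes 6 were higher and 2 lower, and with equal implied totals 0 of the 6 passed 1.5-fold. The pyruvate dehydrogenase genes among them, PDHA1, PDHB, DLAT and PDHX, had no row. MDH2, malate dehydrogenase, was 1.87-fold (interval 1.56 to 2.23) higher, and IDH3A and OGDH, subunits of NADH-producing dehydrogenases, were 1.55-fold (interval 1.27 to 1.89) and 1.69-fold (interval 1.43 to 2.0) lower by the authors' deposited table. For IDH3 the other 2 subunits went the other way, IDH3B being 1.79-fold (interval 1.47 to 2.19) and IDH3G 1.85-fold (interval 1.54 to 2.23) higher by the authors' deposited table. Set beside the members, 54 of 75 mitochondrial ribosomal protein genes were higher and 1 lower (median 1.08), and 76 of 82 cytosolic ribosomal protein genes were higher (median 1.62) by the authors' deposited table. The members' median of 1.52 lies between these, without a test of the differences.

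**Figure D4:**
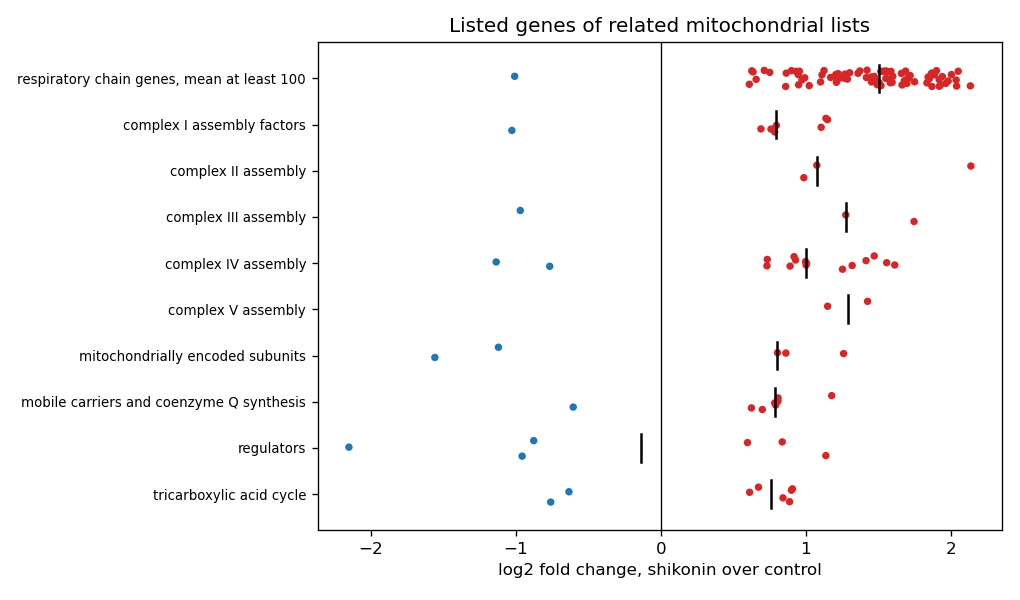
Log2 fold change, shikonin over control (horizontal), of each listed gene of the 79 members whose mean reached 100 normalized counts and of 9 related lists (rows); points are genes, red higher and blue lower, and black ticks are medians. In the member row ATP5MF-PTCD1 stands alone on the left, and the regulator row is split evenly.

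Nuclear respiratory genes are known as targets of the factors NRF1, GABPA and YY1, so their promoters were searched for 3 short motifs on both strands: GCGCANGCG for NRF1, CCGGAAG for GABPA and AAGATGGCG for YY1. The YY1 letters hold an ATG, so a match after the start can also be a start codon, and matches to GCGCANGCG on the 2 strands can overlap. The windows, from RefSeq (GRCh38.p14), run from 250 bases before to 50 after each start site and matched 67 of the 81 members. The NRF1 letters were found in 22 of the 67 (32.8%), against 15.6% of the 2774 listed higher genes with a window and 12.7% of 15317 protein-coding genes. The GABPA letters were in 21 members (31.3%), against 23.5% of the listed higher genes and 16.7% of protein-coding genes. The YY1 letters were in 9 members (13.4%), against 3.64% of the listed higher genes and 3.28% of protein-coding genes. At least 1 of the 3 was found in 41 members (61.2%, against 28.4% of protein-coding genes), and in 26 members these letters are not in the window. Members with the NRF1 letters had a median log2 fold change of 1.43 and those without 1.58 by the authors' deposited table. For GABPA the medians were 1.66 with and 1.48 without, and for YY1 1.29 with and 1.57 without in the authors' deposited table, so holding a motif did not go with one direction of difference.

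For each complex, a stretch is shown of the promoter whose gene had the largest fold of those holding the NRF1 letters (means of 100 normalized counts or more), so that their place can be seen. Capitals mark matches to any of the 3 motifs, 5′ to 3′ on the gene's strand. They lie at chr19:54102660-54102815 (plus strand, NDUFA3), chr11:112086738-112086827 (plus strand, SDHD), chr19:1605438-1605604 (minus strand, UQCR11), chr12:120437869-120438128 (plus strand, COX6A1) and chr4:674242-674520 (minus strand, ATP5ME).
NDUFA3: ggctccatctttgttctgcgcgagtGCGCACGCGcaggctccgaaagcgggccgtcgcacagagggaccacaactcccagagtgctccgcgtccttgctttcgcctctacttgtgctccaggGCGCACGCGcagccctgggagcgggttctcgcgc
SDHD: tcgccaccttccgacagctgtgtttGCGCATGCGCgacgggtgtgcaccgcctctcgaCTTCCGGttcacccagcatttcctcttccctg
UQCR11: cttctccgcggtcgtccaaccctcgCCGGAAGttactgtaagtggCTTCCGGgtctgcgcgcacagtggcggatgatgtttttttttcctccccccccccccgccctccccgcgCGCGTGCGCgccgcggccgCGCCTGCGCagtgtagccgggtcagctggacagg
COX6A1: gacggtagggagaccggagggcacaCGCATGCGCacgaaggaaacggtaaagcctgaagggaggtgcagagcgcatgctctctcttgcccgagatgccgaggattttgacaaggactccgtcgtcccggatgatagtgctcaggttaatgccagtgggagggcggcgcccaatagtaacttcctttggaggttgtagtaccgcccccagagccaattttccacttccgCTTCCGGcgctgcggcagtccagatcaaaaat
ATP5ME: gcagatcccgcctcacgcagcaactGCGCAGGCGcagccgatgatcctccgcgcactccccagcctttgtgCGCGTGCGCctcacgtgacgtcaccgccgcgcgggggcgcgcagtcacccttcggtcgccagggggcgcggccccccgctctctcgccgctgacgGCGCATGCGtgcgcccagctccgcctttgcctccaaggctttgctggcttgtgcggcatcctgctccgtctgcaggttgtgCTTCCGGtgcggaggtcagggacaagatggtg
NDUFA3, 3.91-fold higher by the authors' deposited table, holds the NRF1 letters at 2 places, beginning at -170 and -73, counted from the start site. SDHD, 1.55-fold higher by the authors' deposited table, holds overlapping NRF1 matches from -110 and -109, with GABPA letters from -77. In UQCR11 the NRF1 letters begin at -28 and -9 and the GABPA letters at -117 and -97. COX6A1 and ATP5ME both carry NRF1 letters from -219, and ATP5ME also from -173 and -78. The large change of NDUFA3 and the small one of SDHD thus stand beside promoters that both hold the NRF1 letters.

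The members with YY1 letters and the largest folds, NDUFB8, NDUFS4 and ATP5PF, show where those letters lie. They stand at chr10:100529822-100529879 (minus strand, NDUFB8), chr5:53560635-53560688 (plus strand, NDUFS4) and chr21:25735053-25735199 (minus strand, ATP5PF).
NDUFB8: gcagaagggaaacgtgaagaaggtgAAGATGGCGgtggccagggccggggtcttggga
NDUFS4: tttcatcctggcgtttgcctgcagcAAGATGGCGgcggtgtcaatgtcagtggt
ATP5PF: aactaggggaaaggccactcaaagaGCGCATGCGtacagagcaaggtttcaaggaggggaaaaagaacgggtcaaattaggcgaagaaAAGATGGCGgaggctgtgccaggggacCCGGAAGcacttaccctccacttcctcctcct
In 8 of the 9 members with YY1 letters (88.9%) the match began within 30 bases after the start site, as in NDUFB8 (17 bases) and NDUFS4 (21 bases); among all 502 protein-coding genes with a match it did so in 64.3%. In ATP5PF, the only member whose window holds all 3 motifs, it began at -57. NDUFB8 was 3.17-fold (interval 2.43 to 4.14), NDUFS4, an accessory subunit needed for complex I stability, 3.03-fold (interval 2.33 to 3.94), and ATP5PF 2.81-fold (interval 2.31 to 3.43) higher by the authors' deposited table.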

How the data were processed

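Total RNA went into NEBNext Ultra libraries, per the labels' protocols. Of the authors' steps, the submitters' processing notes list hg38, DESeq2, HISAT2 2.0.5 and fastp; read counter, annotation and RNA selection: not given in the sources used here. Per the file headers, the deposited table holds the authors' mean normalized count (a signal over all 6 libraries), log2 fold change, its standard error, Wald score, p-value and adjusted p of 1 comparison. It has 0 columns of per-sample values, so depth is unknown and no test, replicate block or leave-one-out fit over samples could be made here.

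From the table were computed folds with normal 95% intervals, implied group means (tested on simulated data), and the number of genes tested, from adjusted p, rank and p of the first 100 genes. GENCODE 29 gave positions and coding lengths of the APPRIS principal transcript; all 81 members matched by Ensembl identifier. Members and lists were chosen with earlier results of these data known. Values are given for the 3 largest and the smallest fold and the smallest adjusted p of each complex, for lower members, assembly factors, core, inhibitor and c subunit genes; other genes were named after their values were seen. Promoters of 5 members on a chromosome whose sequence is not reported here were not shown. Alternatives were stricter thresholds, equal implied totals and subunits only. Python 3.11.15, pandas 2.3.3 and scipy 1.17.1 were used.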

Additional observations from a re-analysis of the deposited data

How the results depend on the processing

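The count of members higher was 80 with the authors' thresholds, 65 at 2-fold, 78 at an adjusted p below 0.001, 78 among members with means of 100 or more, 66 after equalizing implied totals and 74 with subunits only, and 1 member was lower in each but the last, which leaves it out. Setting the implied totals of all listed genes equal lowered every log2 fold change by 0.39. The members' median then became 1.12, against 1.52, and 14 members no longer passed 1.5-fold: NDUFC2, NDUFV1, NDUFV2, NDUFA9, NDUFS3, NDUFAB1, NDUFAF6, NDUFA5, NDUFAF4, NDUFA10, SDHD, UQCRC2, ATP5PB and ATP5F1B. In the related lists 22 of 47 higher genes still passed. The shift itself causes these losses. With the longest coding sequence rho was -0.69, and without the readthrough gene and the 2 low members -0.67; with the first window of each gene 21, 20 and 7 members held the NRF1, GABPA and YY1 letters. These 3 alternatives and that of the related lists were chosen after seeing the data. No paired analysis was possible because the table holds no per-sample values, and leaving out replicates was not run for the same reason. Genes without a row were not analysed here.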
